A study of Sus scrofa with 9 samples.

Results

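The loci described here carry the pathway term Carbon metabolism in the authors' gene table and have at least 1 transcript of a defined kind. Such a transcript matches a known transcript of the pig, is contained in it or shares at least 1 splice junction with it. There were 78 such loci among 88800 in the table, of which 17065 had a transcript of that kind and are called annotated here. Levels did not decide which loci are on the list, but the list was chosen with earlier results of these data known. The catalase gene was to be left out of the list, but its locus does not hold the term, so no locus was removed.

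The study concerned the chromatin remodeller INO80 in pig blastocysts, embryos with a fluid-filled cavity lined by trophectoderm and an inner cell mass, and libraries were made from their total RNA. The table holds 9 columns in 3 sets of 3, named for uninjected embryos, for a water sham injection and for INO80 siRNA, a short RNA meant to lower the INO80 transcript. In the sample labels, 3 embryo samples were not injected, 3 are titled and characterised as control siRNA, and 3 are titled as a water sham but characterised as INO80 siRNA. No column is named for control siRNA, so titles and characteristics of the injected samples contradict each other, and the split of uninjected from injected libraries is the one that all labels share. The other comparisons follow the column names, and their directions are those of columns so named. The labels state no embryo age, no number of embryos in a library and no pooling. They also do not say whether replicate libraries go back to different batches of embryos, so the p-values describe sample-to-sample spread that could be technical alone.

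Carbon metabolism joins the breakdown of glucose to pyruvate, the pentose phosphate branch that supplies ribose and NADPH, the entry of pyruvate into mitochondria as acetyl-CoA, and the citrate cycle that oxidises it and feeds electrons to respiration. Serine, glycine, amino acid and propionate routes connect to the same intermediates. In the mouse embryo, early cleavage relies largely on pyruvate, and use of glucose increases as the blastocyst forms.

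INO80 itself checked the column names first. The INO80 locus was at 0.737, 1.09 and 1.92 FPKM (fragments scaled to transcript length and to the library's total, the authors' unit) in the uninjected libraries, 1.72, 0.716 and 1.90 in the water-sham libraries and 0.331, 1.37 and 2.18 in the libraries labelled INO80 siRNA. The 3 sets overlapped completely, so this transcript did not mark the libraries labelled INO80 siRNA. Likeness within and between sets overlapped. Pearson's r of log2 FPKM across annotated loci, which are not independent replicates, was 0.874 to 0.915 within sets, with a mean of 0.896, and 0.840 to 0.933 between them, with a mean of 0.889 and with the highest value between uninjected library 3 and INO80 siRNA library 2. A transcript at 1 FPKM had a mean coverage of 4.57 to 5.57 per base in the uninjected and water-sham libraries. Trophectoderm markers were abundant in each library, with 8 listed genes summing to between 1387 and 8853 FPKM. Of the cumulus and granulosa list, PTX3, CYP19A1 and STAR were at or near 0, whereas FST was at 4.73 to 81.6 and SERPINE2 at 8.26 to 45.6 FPKM. Of the blood list PTPRC was at or near 0, whereas HBB reached 23.6, CD68 8.32 and LYZ 7.97 FPKM.

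For the shares in this paragraph, signal is transcript FPKM times transcript length. Only transcripts of the annotated kind were counted for members and annotated loci. As a share of the signal over annotated loci, the 78 loci together took 1.32%, 1.36% and 1.46% in the uninjected libraries, 1.66%, 1.68% and 1.85% in the water-sham libraries and 0.898%, 1.08% and 1.16% in the INO80 siRNA libraries. The water-sham libraries were thus the highest and the INO80 siRNA libraries the lowest, with no overlap among the 3 sets. Annotated loci themselves took between 65.6% and 86.1% of all signal in the water-sham libraries, 61.0% to 74.6% in the uninjected and 50.3% to 71.6% in the INO80 siRNA libraries. The set means of this share, 67.8%, 78.0% and 62.4% for uninjected, water sham and INO80 siRNA, stood in the same order as the members, and its part in the results below was not tested. In libraries of whole embryos, fewer cells of a type and less RNA per cell cannot be told apart.

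**Figure D1:**
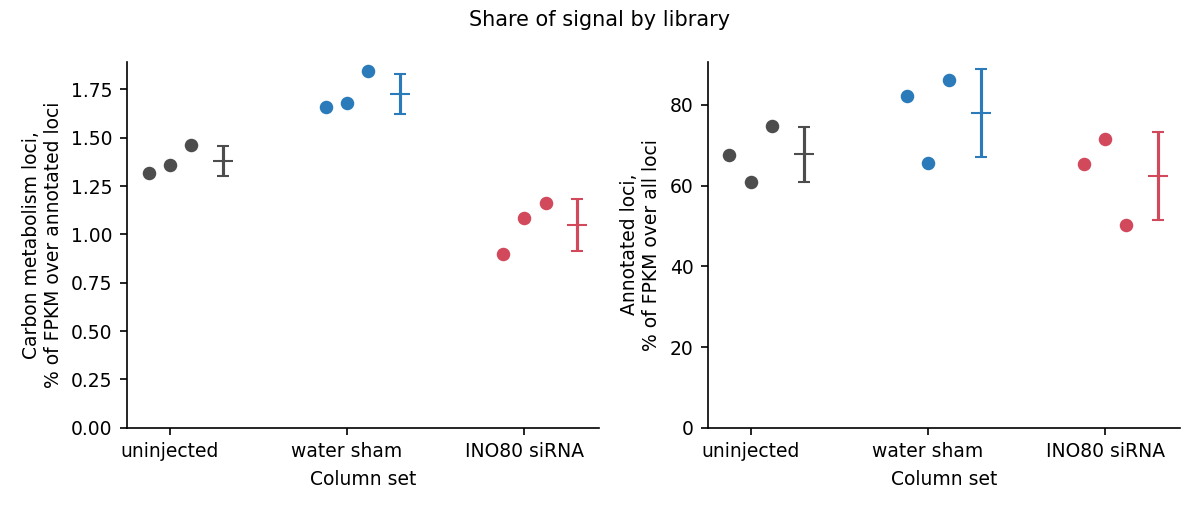
Points are single libraries by column set, with the mean and SD beside them. The left axis is the percent of signal over annotated loci that the 78 carbon metabolism loci took. The right axis is the percent of all signal on annotated loci. Signal is FPKM times transcript length, although the axes are labelled FPKM. On the left the INO80 siRNA libraries, at 0.898% to 1.16%, lie below the uninjected libraries, and the water-sham libraries, at 1.66% to 1.85%, lie above them; on the right the sets overlap.

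Levels of the members ranged widely. Over the 9 libraries, 15 loci had a mean above 100 FPKM, 48 lay between 1 and 100 and 15 were below 1. SDHB, an iron-sulphur subunit of succinate dehydrogenase, was the most abundant, and the transaldolase TALDO1 was next. With a filter of a mean of 1 FPKM in at least 1 column set, 66 loci were tested and 12 were not. HK1, ME3, SDS and CPS1 were among 5 loci that reached the filter in 1 set only. The loci lay on 18 chromosomes, with 8 on chromosome 14 and 6 on X, and 26 of them also carry the term for glycolysis and gluconeogenesis, 22 that for the citrate cycle and 16 that for the pentose phosphate pathway.

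No member passed the test between all injected and the uninjected libraries. None of the 66 loci was called at an adjusted p under 0.05 by limma, where 0% of all 67107 loci tested were called, and the lowest adjusted p of a member in limma was 0.990. There were also 0 members at an unadjusted p under 0.05 in limma. Of the 66, 28 had a higher and 38 a lower mean log2 level in the injected libraries, and the median difference in log2(FPKM + 1) was -0.06, against -0.03 over 9311 annotated loci tested. The interval behind such a value was wide: for MDH2, mitochondrial malate dehydrogenase, limma gave -0.15 with a 95% interval of -1.19 to 0.89 on the log2 scale. The members with the smallest p in this comparison did not pass. They were the malic enzyme ME3 at a difference of 0.65, the serine dehydratase SDS at 0.88 and the ribose-phosphate kinase PRPS2 at 0.55, and on the lower side the triokinase TKFC at -0.41, the gluconokinase IDNK at -0.47 and the cytosolic aconitase ACO1 at -0.40.

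By column name, most of these genes had lower FPKM in the INO80 siRNA than in the water-sham libraries, without any single gene passing the adjusted test. FPKM are relative values and do not measure the amount of RNA. Their total over all loci was 663229 to 914024 uninjected, 496853 to 830415 with water sham and 815206 to 1067360 with INO80 siRNA. The part of these totals in the differences was not tested. Of the 66 loci, 61 were lower, which is 92.4%, against 72.3% of annotated loci. The median difference in log2(FPKM + 1) was -0.83, against -0.34 over annotated loci and 0.57 over all loci. None was called at an adjusted p under 0.05 by limma, where 0.00149% of all loci were called, and the lowest adjusted p of a member in limma was 0.455. At an unadjusted p under 0.05, 18 members were lower in limma and 0 were higher, which is 27.3% of those tested against 6.79% of annotated loci lower. Without the 5 loci that reached the filter in 1 set only, 57 of 61 were lower, or 93.4%, and 18 were lower at an unadjusted p under 0.05 in limma. In 31 of the 78 loci all 3 INO80 siRNA libraries lay below all 3 water-sham libraries, and in 0 they lay above. Among the 66 tested, 30 did so, or 45.5%, against 18.6% of annotated loci. With a filter of 5 FPKM, the median difference was -0.99 over 53 members and -0.49 over 4848 annotated loci. At that filter 18 of these members and 491 of these annotated loci were lower at an unadjusted p under 0.05 in limma. Scaling each library to the median of its annotated loci moved the annotated median to 0.02, and with it the median of the members was -0.38. After scaling, 50 of 66 members and 4532 of 9311 annotated loci were lower. At an unadjusted p under 0.05 in limma, 7 members and 225 annotated loci were then lower. Without scaling, the count of members lower at an unadjusted p under 0.05 in limma was 18. Without water-sham library 1 that count was 9, and without water-sham library 3 it was 11.

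Both column sets were also set against the uninjected libraries, which the 2 comparisons share. In the INO80 siRNA libraries 56 of 66 loci were lower than in uninjected ones, with a median difference of -0.53 against -0.20 over annotated loci. None was called by limma, where 0.00149% of all loci were, and the lowest adjusted p of a member in limma was 0.814. At an unadjusted p under 0.05 in limma 1 was lower, MDH2, or 1.52%, against 1.4% of annotated loci. Of the 66 tested, 13 did not overlap and were lower, or 19.7%, against 8.6% of annotated loci tested. In the water-sham libraries 54 of 66 loci were higher than in uninjected ones, with a median difference of 0.40 against 0.16 over annotated loci. None was called by limma, where 0% of all loci were, and the lowest adjusted p of a member in limma was 0.915. At an unadjusted p under 0.05 in limma 2 were higher, or 3.03%, against 1.25% of annotated loci. Of the 66 tested, 17 did not overlap and were higher, or 25.8%, against 8.63% of annotated loci tested.

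**Figure D2:**
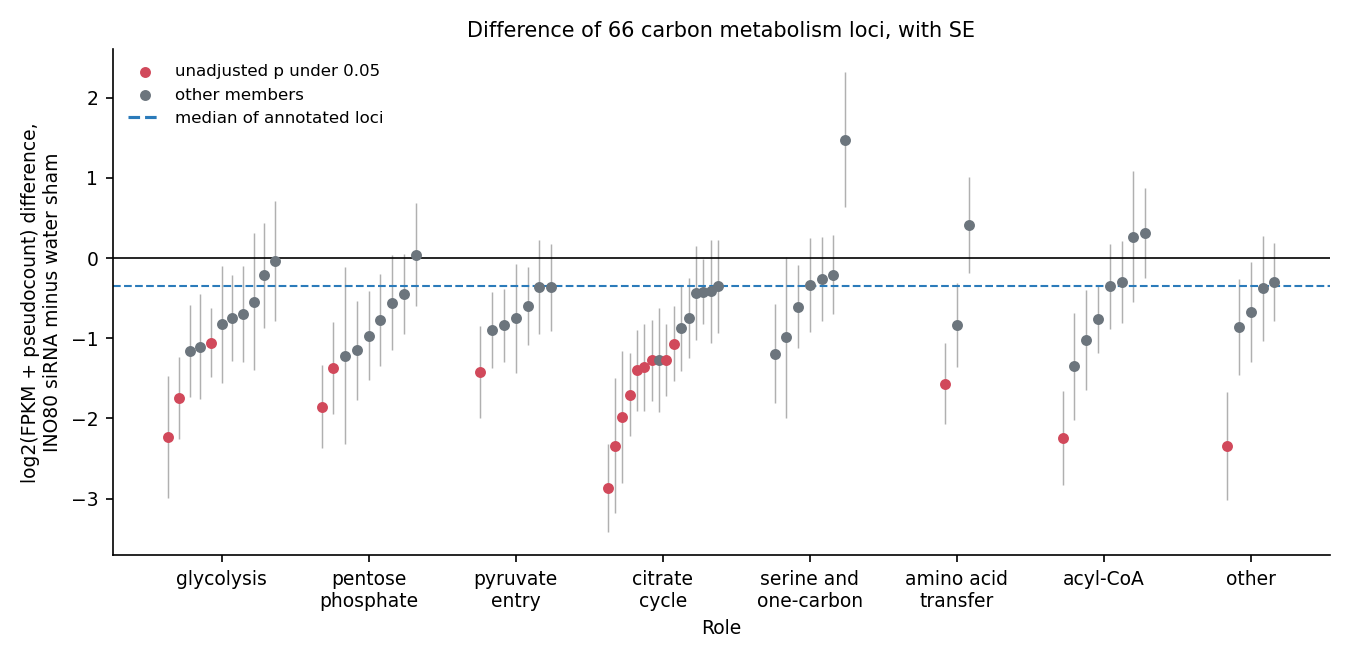
Each point is 1 of the 66 loci tested, grouped by role, with its difference in log2(FPKM + 1) between the INO80 siRNA and water-sham libraries on the vertical axis and its SE as a line. The 18 red points have an unadjusted p under 0.05 in limma, all of them lower and 9 of them in the citrate cycle group. The dashed line is the median of annotated loci at -0.34, and no point passed the adjusted test.

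The citrate cycle group had the lowest median difference of the 8 role groups between the INO80 siRNA and water-sham libraries. This group includes the cytosolic enzymes IDH1 and ACO1, and no locus named CS, for citrate synthase, is in it. The summed level of its 17 loci was 1335 to 1688 FPKM in the uninjected libraries, 1851 to 2481 in the water-sham libraries and 815 to 1264 in the INO80 siRNA libraries. The 3 sets thus did not overlap. All 16 loci tested were lower in the INO80 siRNA than in the water-sham libraries, with a median difference of -1.27, and in 11 of them the libraries did not overlap, against 72.3% of annotated loci lower and 18.6% not overlapping and lower. In limma 9 of the 16 were lower at an unadjusted p under 0.05, against 6.79% of annotated loci. Among the 9 were MDH2, IDH1, FH, SUCLA2, IDH3A, IDH3G, SDHC and SUCLG1.

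MDH2 oxidises malate to oxaloacetate at the end of the cycle and lies on chromosome 3 at 9953218 to 9965969 on the minus strand in the authors' coordinates, whose build the labels leave unclear. It was at 120.1, 113 and 201 FPKM in the uninjected libraries, 253, 318 and 492 in the water-sham libraries and 35.2, 89.5 and 30.3 in the INO80 siRNA libraries. Every water-sham value was above and every INO80 siRNA value below all the uninjected ones. The mean level was 354 ± 124 FPKM (SD, n = 3) in the water-sham libraries, 6.86 times the 51.6 ± 32.9 FPKM (SD, n = 3) in the INO80 siRNA libraries. In limma the difference was -2.87 in log2(FPKM + 1), with an SE of 0.55, an unadjusted p of 0.000231 and an adjusted p of 0.455, the smallest p of any member.

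IDH1 makes NADPH from isocitrate in the cytosol, and its locus lies on chromosome 15 at 122861666 to 122883914. It was at 102, 127 and 80.6 FPKM in the uninjected libraries, 107, 171 and 209 in the water-sham libraries and 71.2, 42.3 and 35.2 in the INO80 siRNA libraries. The INO80 siRNA libraries lay below all others, whereas the uninjected and water-sham libraries overlapped; limma gave -1.70 against water sham with an SE of 0.51 and an adjusted p of 0.459. Its mitochondrial counterpart IDH2 overlapped in all sets, at 12.2 to 30.7 FPKM uninjected, 24.0 to 33.5 with water sham and 11.7 to 41.2 with INO80 siRNA.

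All 3 subunits of the NAD-linked isocitrate dehydrogenase had lower means with INO80 siRNA than with water sham. IDH3A, the catalytic subunit, was at 57.4, 56.6 and 71.5 FPKM uninjected, 96.4, 48.5 and 135 with water sham and 40.7, 28.3 and 30.4 with INO80 siRNA, and its INO80 siRNA values lay below all others. IDH3G, a regulatory subunit, was at 178, 159 and 176 FPKM uninjected, 351, 225 and 242 with water sham and 62.4, 205 and 103 with INO80 siRNA, where library 2 stood above the uninjected range. IDH3B overlapped between the water-sham and INO80 siRNA libraries.

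Other loci of the cycle are named here after their values were seen. Fumarase, FH, was at 123, 86.9 and 88.1 FPKM uninjected, 163, 129.8 and 149 with water sham and 60.9, 61.2 and 58.7 with INO80 siRNA. SUCLA2, the ADP-forming subunit of succinyl-CoA synthetase, was at 62.5, 59.7 and 61.7 uninjected, 108, 63.2 and 124 with water sham and 33.6, 29.3 and 43.9 with INO80 siRNA. In both the INO80 siRNA libraries were the lowest and the water-sham libraries the highest, but water-sham library 2 exceeded the uninjected SUCLA2 range by little. SDHC, a membrane anchor of succinate dehydrogenase, varied widely within sets, from 9.02 to 76.6 FPKM uninjected and from 6.25 to 30.6 with INO80 siRNA, against 71.4 to 137 with water sham. SDHB, of the same complex, was at 438, 332 and 471 FPKM uninjected, 581, 317 and 416 with water sham and 304, 372 and 284 with INO80 siRNA. Its sets overlapped, and limma gave -0.42 with a 95% interval of -1.30 to 0.46.

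OGDH, the first subunit of the oxoglutarate dehydrogenase complex and a control point of the cycle, was low at 1.08 to 5.23 FPKM and overlapped in all sets. Its relative OGDHL did not reach the filter.

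**Figure D3:**
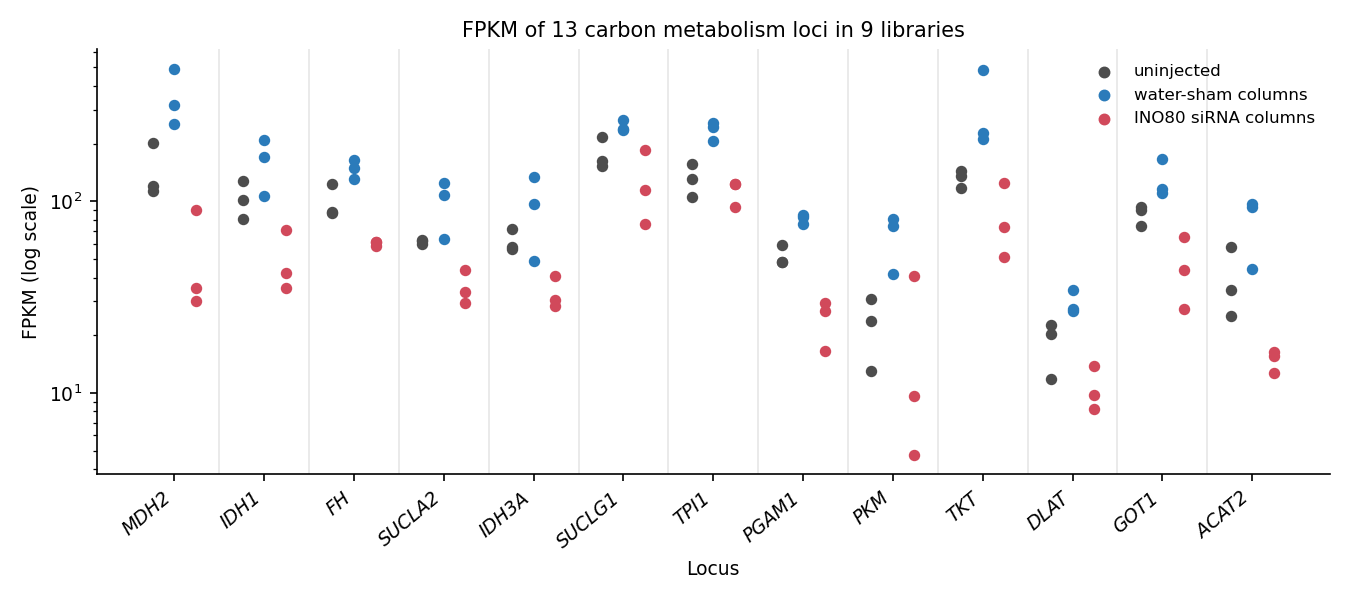
FPKM on a log axis of 13 loci in the 9 libraries, 3 points for each column set; the loci were drawn after their values were seen. MDH2 and PGAM1 show INO80 siRNA points below and water-sham points above every uninjected point; for PKM the highest INO80 siRNA point, 40.5, nearly meets the lowest water-sham point, 41.6.

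Glycolysis had 19 loci, of which 11 were tested, and all 11 were lower in the INO80 siRNA than in the water-sham libraries, with a median difference of -0.83. Without HK1, which reached the filter through the water-sham libraries only, all 10 others were lower, with a median of -0.94. Of annotated loci 72.3% were lower, with a median of -0.34. In limma 3 of the 11 were lower at an unadjusted p under 0.05, TPI1, PGAM1 and PKM, against 6.79% of annotated loci. For 4 of the 11, or 36.4%, the libraries did not overlap, against 18.6% of annotated loci. TPI1, which interconverts the triose phosphates, had the highest mean of the group: it was at 156, 106 and 131 FPKM uninjected, 255, 206 and 244 with water sham and 124, 93.5 and 122 with INO80 siRNA. Only the water-sham libraries of TPI1 stood apart, above both other sets. PGAM1, phosphoglycerate mutase, was at 59.4, 48.2 and 48.5 FPKM uninjected, 85.1, 75.7 and 82.9 with water sham and 16.5, 29.4 and 26.8 with INO80 siRNA, with no overlap among the sets. In limma PGAM1 differed by -1.74 between INO80 siRNA and water sham, with an SE of 0.51 and an adjusted p of 0.459. PKM, the pyruvate kinase of most tissues, was at 23.8, 31.0 and 13.1 FPKM uninjected, 41.6, 74.4 and 80.7 with water sham and 4.77, 9.61 and 40.5 with INO80 siRNA. Its INO80 siRNA library 3 was above the whole uninjected range.

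GAPDH was at 90.7, 53.4 and 257 FPKM uninjected, 211, 74.7 and 216 with water sham and 38.8, 153 and 100.4 with INO80 siRNA, so its spread within a set exceeded any difference between sets. Its gene model in the table has 4 exons. PGK1, the first ATP-yielding kinase of the pathway, was at 75.4, 57.7 and 52.5 FPKM uninjected, 102, 46.8 and 74.0 with water sham and 58.6, 31.3 and 39.9 with INO80 siRNA, also with overlap. Processed copies of GAPDH, PGAM1, PGK1 and TPI1 are common in mammalian genomes, and the labels do not say how reads shared with such copies were assigned, so these levels are uncertain.

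The kinases that commit glucose to the pathway and are among the 78 loci were low, and no locus named PFKP is among them. ADPGK, named after its values were seen, had means of 4.86 FPKM uninjected, 7.77 with water sham and 2.95 with INO80 siRNA. HK1 was at 0.535, 0.0933 and 2.01 FPKM uninjected, 0.275, 1.13 and 3.66 with water sham and 0.188, 0.485 and 0.676 with INO80 siRNA. HK2 lay between 0.462 and 1.67 FPKM in the 9 libraries and did not reach the filter, and HK3 and HKDC1 did not reach it either. PFKL, the liver-type phosphofructokinase, was at 5.42, 3.31 and 8.33 FPKM uninjected, 16.1, 3.26 and 2.31 with water sham and 0.387, 9.53 and 4.37 with INO80 siRNA, whereas the muscle-type PFKM stayed at 1.56 FPKM or less. HK1 and PFKL overlapped in all sets. HKDC1 was at 0 to 0.0497 FPKM uninjected and 0.118 to 0.145 with INO80 siRNA, without overlap but near the floor of the table. ENO1, the enolase of most tissues, carries no pathway term in the table and is therefore not among the 78. It was at 254.9, 196.1 and 49.2 FPKM uninjected, 165.4, 160.7 and 242.6 with water sham and 31.0, 49.2 and 49.2 with INO80 siRNA, where the water-sham and INO80 siRNA libraries did not overlap and limma gave -2.12 with an adjusted p of 0.459. Its muscle counterpart ENO3, a member, was at 0.981 to 6.76 FPKM with overlap in all sets.

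All 9 loci of the pentose phosphate branch were tested. In the INO80 siRNA libraries 8, or 88.9%, were lower than with water sham, against 72.3% of annotated loci, and the median difference was -0.97. For 3 loci, or 33.3%, the libraries did not overlap, against 18.6% of annotated loci. TKT, transketolase, was at 117, 145 and 135 FPKM uninjected, 226, 211 and 483 with water sham and 51.5, 125 and 73.8 with INO80 siRNA. All water-sham values lay above both other sets, and limma gave -1.85 against water sham with an SE of 0.52 and an adjusted p of 0.459. RPIA, the ribose-5-phosphate isomerase, named after its values were seen, was also lower at an unadjusted p of 0.0351 in limma. TALDO1, which works with TKT, was at 281, 312 and 326 FPKM uninjected, 597, 328 and 234 with water sham and 169, 441 and 242 with INO80 siRNA, so the injected sets overlapped and were both more spread out than the uninjected one. RGN, regucalcin, a lactonase better known for calcium handling, was at 104, 30.03 and 515 FPKM uninjected, 189.7, 37.9 and 213 with water sham and 17.3, 179.8 and 37.3 with INO80 siRNA, so each set spanned a wide range. IDNK had a value of 3.32 to 14.9 FPKM and overlapped throughout.

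Entry of pyruvate into the cycle runs through the pyruvate dehydrogenase complex. The summed level of the 8 loci of this entry was 293 to 325 FPKM uninjected, 368 to 421 with water sham and 177 to 254 with INO80 siRNA, with no overlap among the sets. All 7 loci tested were lower with INO80 siRNA than with water sham, against 72.3% of annotated loci, at a median difference of -0.75. For 4 of the 7, or 57.1%, the libraries did not overlap, against 18.6% of annotated loci. Without ME3, which reached the filter through the water-sham libraries only, all 6 others were lower, with a median of -0.80. PDHA1, the alpha subunit of the first enzyme, was at 54.5, 48.5 and 51.8 FPKM uninjected, 55.2, 49.5 and 72.0 with water sham and 39.2, 35.6 and 39.5 with INO80 siRNA. Its INO80 siRNA libraries lay below all others by a small margin, and limma gave -0.60 with a 95% interval of -1.67 to 0.48. PDHB, the beta subunit, was at 117, 111 and 139 FPKM uninjected, 180.5, 120.0 and 105 with water sham and 71.3, 63.4 and 86.2 with INO80 siRNA, again lowest with INO80 siRNA.

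DLD, the dihydrolipoamide dehydrogenase shared with the oxoglutarate complex, was at 113, 103 and 109 FPKM uninjected, 151, 155 and 174 with water sham and 133, 55.2 and 84.2 with INO80 siRNA. Here the water-sham libraries stood above both other sets, and INO80 siRNA library 1 lay above the uninjected range. DLAT, the acetyltransferase of the complex, named after its values were seen, was at 20.3, 22.5 and 11.8 FPKM uninjected, 26.8, 27.4 and 34.5 with water sham and 8.20, 9.77 and 13.8 with INO80 siRNA. PC, pyruvate carboxylase, which refills oxaloacetate, was at 1.99 to 12.7 FPKM and overlapped in all sets. ME3 was listed at 0 in 2 uninjected libraries and reached 2.996 FPKM in water-sham library 2.

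The summed level of the serine, glycine and one-carbon loci was 227 to 300.3 FPKM uninjected, 206 to 312 with water sham and 158 to 199.6 with INO80 siRNA. Of 7 loci tested 6, or 85.7%, were lower with INO80 siRNA than with water sham, against 72.3% of annotated loci. The median difference was -0.33, close to the annotated median of -0.34, and 0 had an unadjusted p under 0.05 in limma. Without the 3 loci that reached the filter in 1 set only, all 4 others were lower, with a median of -0.80. PHGDH, the first enzyme of serine synthesis, was at 13.02, 27.9 and 23.0 FPKM uninjected, 22.3, 25.7 and 27.9 with water sham and 5.96, 10.8 and 17.4 with INO80 siRNA. The INO80 siRNA libraries of PHGDH lay below the water-sham ones and overlapped the uninjected ones. PSPH, the last enzyme of serine synthesis, was at 10.7, 12.2 and 145 FPKM uninjected, 84.1, 25.0 and 59.2 with water sham and 10.8, 64.0 and 21.3 with INO80 siRNA, so 1 uninjected library was the highest of all. ADH5 and ESD, which clear formaldehyde through glutathione, were the other abundant members, at 56.1 to 159 and 34.0 to 76.2 FPKM.

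SDS, a liver enzyme that turns serine into pyruvate, was listed at 0 in 5 libraries, including all uninjected ones, and was at 0.344 FPKM in water-sham library 3 and 0.159, 0.514 and 15.5 in the INO80 siRNA libraries. INO80 siRNA library 3 alone carried nearly all of its signal. In the same library oocyte markers summed to 122.5 FPKM, against 3.54 to 48.3 in the other libraries, and UCHL1 made up 110.8 of that; the part of this in the SDS value was not tested. The related SDSL, which did not reach the filter, was at 0.584 to 0.913 FPKM uninjected and at 0 to 0.446 in the 6 injected libraries. No other locus of the 78 had all its injected libraries below the uninjected ones, and 0.612% of annotated loci tested did.

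Amino acid transfer had 3 loci. GOT1, the cytosolic aspartate aminotransferase of the malate-aspartate shuttle, was at 92.9, 89.6 and 74.5 FPKM uninjected, 116, 111 and 167 with water sham and 27.6, 64.8 and 44.0 with INO80 siRNA. Its sets did not overlap, and limma gave -1.57 between INO80 siRNA and water sham with an SE of 0.51 and an adjusted p of 0.460. The alanine aminotransferases were low. GPT was at 3.38 to 10.04 FPKM with overlap in all sets, and GPT2 at 1.48 to 2.56 uninjected, 2.62 to 4.89 with water sham and 0.672 to 2.60 with INO80 siRNA.

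Of 8 acyl-CoA and propionate loci, 6 were lower with INO80 siRNA than with water sham, at a median difference of -0.55. That is 75% of them, close to the 72.3% of annotated loci. ACAT1, the mitochondrial acetoacetyl-CoA thiolase, varied little in the uninjected and water-sham libraries, at 174, 190.1 and 199.6 and at 209.6, 195 and 202 FPKM, against 140.0, 138 and 88.4 with INO80 siRNA. The INO80 siRNA libraries of ACAT1 were below all others, and limma gave -0.75 with an adjusted p of 0.498. ACAT2, the cytosolic thiolase at the start of sterol synthesis, was at 25.1, 34.4 and 57.7 FPKM uninjected, 96.4, 44.4 and 92.9 with water sham and 15.5, 16.4 and 12.7 with INO80 siRNA. Its INO80 siRNA libraries were below all others, and limma gave -2.24 against water sham with an SE of 0.58 and an adjusted p of 0.459. MCEE, methylmalonyl-CoA epimerase, was among the few loci with a higher mean in the INO80 siRNA libraries, at 62.2, 30.5 and 29.7 FPKM against 27.0, 28.7 and 37.2 with water sham, and this rested on INO80 siRNA library 1.

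The remaining 5 loci include 4 with no gene symbol in the files or tables used here. ENSSSCG00000002797 was at 6.72, 5.50 and 3.31 FPKM uninjected, 9.74, 15.4 and 33.3 with water sham and 1.89, 1.34 and 5.80 with INO80 siRNA. Its water-sham libraries lay above both other sets, and limma gave 1.60 against uninjected libraries with an unadjusted p of 0.0355 and an adjusted p of 0.915. TKFC was at 3.24, 2.71 and 3.11 FPKM uninjected, 1.97, 1.96 and 3.27 with water sham and 1.30, 2.33 and 1.61 with INO80 siRNA, the INO80 siRNA libraries lying below the uninjected ones.

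The ratio of isozymes within a library depends little on how that library was scaled where both genes are well above the added 0.1 FPKM, but does depend on it for low genes such as ACSS1, PGAM2, HK1 and HK2. Of 18 isozyme pairs considered, 8 had both genes among the members and at least 1 above the filter. Between injected and uninjected libraries the lowest p of an exact two-sided permutation test was 0.190, for PRPS1 over PRPS2, with 0.929 after adjustment over the 8 pairs; 3 against 6 libraries cannot give a p below 0.0238. PGAM1 took at least 98.0% of the PGAM1 and PGAM2 signal and ACAT1 between 68.5% and 90.0% of the ACAT pair in each library. HK1 ranged from 8.85% to 68.7% of the HK1 and HK2 signal. The log2 ratio of ACAT1 to ACAT2 was 2.79, 2.46 and 1.79 uninjected, 1.12, 2.13 and 1.12 with water sham and 3.16, 3.06 and 2.79 with INO80 siRNA. The injected sets did not overlap for this ratio, but 3 against 3 libraries cannot give an exact permutation p below 0.1.

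**Figure D4:**
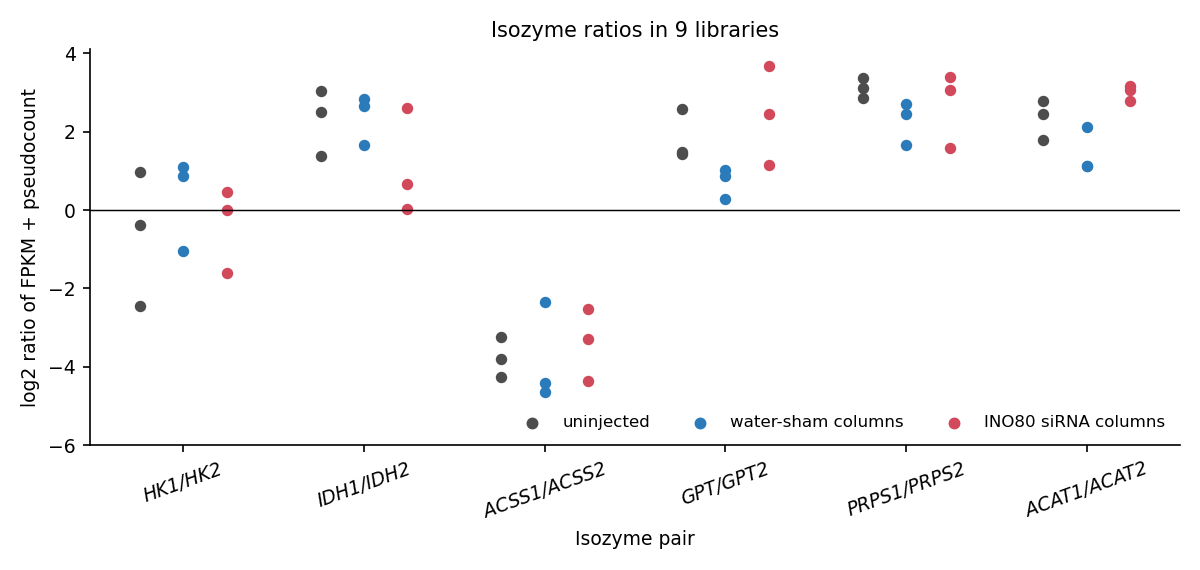
The log2 ratio of FPKM + 0.1 of the first to the second gene of 6 isozyme pairs in the 9 libraries, 3 points for each column set; PGAM1 over PGAM2 is not among them because PGAM2 was listed at 0 in most libraries. For ACAT1 over ACAT2 the INO80 siRNA points, 2.79 to 3.16, lie above the water-sham points, 1.12 to 2.13, while the uninjected points reach both.

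Which transcript carried a locus also varied. The 78 loci had 169 transcripts, and 45 loci had at least 2 of the annotated kind. Among 42 such loci that reached the filter, 25 had the same most abundant transcript in all 9 libraries. SDHC was an exception: in water-sham library 1 its known transcript held 18.6% of the locus signal, against 69.7% to 100% in the other libraries. For PSPH the known transcript held 10.4% in INO80 siRNA library 3 and 69.5% to 96.0% elsewhere. In any library the known transcript held at most 1.86% of the locus signal for IDH1, 1.47% for ACAT1 and 11.0% for PGAM1. In 33 loci a known transcript was the only one of the annotated kind. Transcript shares depend on the authors' assembly, and no test was run on them.

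Glucose handling genes outside the pathway term were nearer to the annotated loci as a whole. Of 38 listed genes 30 were found and 26 tested, and none was called in any of the 4 comparisons by limma, with a lowest adjusted p of 0.459. Between INO80 siRNA and water sham 20 were lower, which is 76.9% against 72.3% of annotated loci, and 6 were higher, with a median difference of -0.59 against -0.34. In limma 4 of them, or 15.4% against 6.79% of annotated loci, were lower at an unadjusted p under 0.05: the citrate carrier SLC25A1, the oxoglutarate carrier SLC25A11, the transcription factor MYC and the phosphoglucomutase PGM2. PGM2 was at 119.2, 153.6 and 119.0 FPKM uninjected, 135, 154 and 334 with water sham and 32.5, 54.9 and 64.5 with INO80 siRNA, lowest with INO80 siRNA. LDHB, the lactate dehydrogenase subunit with the highest mean of this list, was at 176 to 622 FPKM in 8 libraries and listed at 0 in water-sham library 2.

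Levels of cell type markers were also compared by column set. Epiblast markers, 3 of 4 found, summed to 82.9 to 122 FPKM uninjected, 72.9 to 153 with water sham and 27.6 to 92.9 with INO80 siRNA. Most of this sum was POU5F1, at 17.6 to 125.9 FPKM, whereas SOX2 was at 0 to 1.36 FPKM. Primitive endoderm markers, all 4 found, summed to 14.1 to 23.4, 12.2 to 27.1 and 9.11 to 15.8 FPKM in the same order. The trophectoderm sum, mostly KRT8 and KRT18, was 3081 to 8853, 3329 to 8667 and 1387 to 5421 FPKM. Each of these 3 lists reached its lowest value in an INO80 siRNA library, with overlap between sets in the sums. Single markers did separate: TDGF1 of the epiblast was at 4.29 to 11.5 FPKM with INO80 siRNA, below 17.0 to 27.0 with water sham and 22.1 to 30.6 uninjected. The trophectoderm keratin KRT8 was at 631 to 1431 FPKM with INO80 siRNA against 1507 to 4315 with water sham, and the endocytic adaptor DAB2 at 81.0 to 196 against 225 to 341 FPKM. TFAP2C of the same trophectoderm list went the other way, at 16.0 to 29.2 FPKM with INO80 siRNA against 3.99 to 12.8 with water sham. The part of these markers in the carbon metabolism values was not tested. Cumulus and granulosa markers, 5 of 7 found, summed to 19.5 to 95.3, 26.3 to 127 and 23.6 to 26.7 FPKM, and blood markers, 4 of 5 found, to 2.27 to 13.3, 3.61 to 10.7 and 7.18 to 25.3 FPKM.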

How the data were processed

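RNA-seq of 9 pig blastocyst samples was analysed from the gene and transcript tables that the authors deposited. Values are FPKM per locus and per transcript, and the deposited coverage (signal) columns of the uninjected and water-sham libraries gave depth. The 3 coverage columns named INO80 siRNA were not used. The submitters' processing notes name fastp, HISAT2, StringTie and edgeR, and also HOMER and ChIPseeker, without versions, and the human build GRCh38.p10, while gene identifiers are those of the pig; annotation release, strand setting and the build of the coordinates were not given in the sources used here. Reads of antisense partners can therefore not be separated from those of a gene. Fitting used limma 3.58.1 in R 4.3.3 with trend and robust options on log2(FPKM + 1), which understates changes of low genes, over all loci whose mean reached 1 FPKM in a column set, two-sided, adjusted by Benjamini-Hochberg over all loci tested and called under 0.05. The fit was tested on simulated data. Isozyme ratios used a pseudocount of 0.1. Of 9 members named only by an Ensembl ID, 5 were given symbols from a table of gene names. Genes were named by a rule: the markers MDH2, IDH1 and ENO1, control-point enzymes, the 3 highest means per role, the 3 smallest p per direction and comparison, and tested isozymes; others are said to be named after their values were seen. Some member loci are counted but not reported here by name. Members, roles and lists were chosen with earlier results of these data known. The counts at an unadjusted p, the counts of loci without overlap and the shares of signal were added after the data were seen. Alternatives covered normalization, filter, pseudocount, trend, samples fitted, the replicate block and each library left out.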

Additional observations from a re-analysis of the deposited data

Results flagged for a closer look

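Among the 6 injected libraries, 47 named genes were examined for a library far from the others, and 6 had one; for normally distributed values chance alone gives about 1 in 20, and FPKM are right-skewed. For SDS the highest library, INO80 siRNA 3 at 15.5 FPKM, was separated from the next by 0.967 of the whole range. For MCEE the highest library, INO80 siRNA 1 at 62.2 FPKM, was separated by 0.711 of the range. HK1 at 3.66 FPKM, HK2 at 1.67 FPKM and ENSSSCG00000016152 at 13.1 FPKM were highest in water-sham library 3, with gaps of 0.729, 0.737 and 0.722 of the range. ACSS1, an acetyl-CoA synthetase, was listed at 0 in 5 injected libraries and at 0.0257 FPKM in water-sham library 3, a gap of 1 that follows from the zeros.

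MDH2, PGAM1 and GOT1, like FH and SUCLA2, which are not among the genes named by the rule, lay on opposite sides of the uninjected libraries, with every water-sham library above and every INO80 siRNA library below them. The difference between the injected sets in log2(FPKM + 1) was -2.87 for MDH2, -1.74 for PGAM1 and -1.57 for GOT1. By limma the unadjusted p ran from 0.000231 to 0.00962 for these 3 and the adjusted p from 0.455 to 0.460, so none passed after adjustment. These directions follow the column names and are subject to the conflict in the labels.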

How the results depend on the processing

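No member was called by limma in any of the 4 comparisons under the settings tried, and the lowest adjusted p over them was 0.0610, for MDH2. The median differences kept their sign in the 3 comparisons by column name. Quantile normalization moved the annotated median between INO80 siRNA and water sham to -0.99, and the median of the members to -1.38, and that between water sham and uninjected to 0.78; scaling to the median of annotated loci gave -0.38 for the former. The number of members lower with INO80 siRNA than with water sham at an unadjusted p under 0.05 in limma was 18. It became 30 with annotated loci only, 34 with quantile normalization, 7 with scaling to annotated loci and 11 with only the columns compared. With 1 library left out it ranged from 9 to 18. Among annotated loci the count also moved, from 632 of 9311 to 1379 with annotated loci only, 2652 with quantile normalization and 225 with scaling. With only the columns compared it was 464 of 9059. For members without overlap, leaving out 1 library gave 33 to 46 in place of 31, as fewer libraries overlap less. The median for injected against uninjected libraries ran from -0.13 to 0.04, so its sign was not stable. The causes were not tested.

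Quantile normalization reversed the signs of 3 uncalled differences between water sham and uninjected, IDNK to 0.0178, TKFC to 0.21 and GPT to 0.18, and between INO80 siRNA and water sham of GPT to -0.32 and MCEE to -0.28. With 1 library left out, ACO1 in injected against uninjected ranged from -0.65 to 0.0154, MCEE from -0.0902 to 0.43 against uninjected and from -0.0281 to 0.49 against water sham. Isozyme differences between injected and uninjected ranged from -0.34 to 1.37 for HK1 over HK2, -0.0840 to 0.43 for ACSS1 over ACSS2, -0.67 to 0.12 for GPT over GPT2 and -0.39 to 0.11 for ACAT1 over ACAT2.

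Column numbers did not pair the libraries: deviations of same-numbered libraries correlated at -0.07 to 0.13. With the number as a replicate block in limma, 14 members were lower with INO80 siRNA than with water sham at an unadjusted p under 0.05, and 0 were called. Of 9311 annotated loci 487 were lower in the same way. With 3 libraries a set, precision is limited by the spread between libraries, and all 12 loci below the filter were fitted in the one alternative without it; 2 fits with a library left out tested 67 members.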
